A study of Homo sapiens with 18 samples.

Results

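The 10 genes described here encode 7 Toll-like receptors (TLR1, TLR2, TLR4, TLR6, TLR7, TLR8 and TLR9), the receptor partners CD14 and LY96, and the adaptor MYD88. They were found by gene symbol among the 40184 Ensembl gene IDs of the deposited expression table, and all 10 were matched. RNA-seq had been run on 3 human acute myeloid leukaemia cell lines given vehicle (DMSO) or RMC-4550 for 24 h. RMC-4550 is an allosteric inhibitor of SHP2, the phosphatase encoded by PTPN11, which relays growth factor receptor signalling to RAS and the MAPK cascade. The comparisons ask how high each gene stood in the vehicle cultures of each line and how it changed with the inhibitor. The 6 groups were Molm-14 (FLT3-ITD) with DMSO, Molm-14 with RMC-4550 at 500 nM, MV4-11 (FLT3-ITD) with DMSO, MV4-11 with RMC-4550 at 500 nM, SKNO-1 (KIT N822K) with DMSO, and SKNO-1 with RMC-4550 at 500 nM. Both SKNO-1 groups were cultured in 10 ng/mL human GM-CSF and the other 4 groups were not, so line, genotype and growth factor cannot be told apart in any contrast with SKNO-1. Each group had 3 libraries, labelled as biological replicates.

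Toll-like receptors sense microbial molecules and signal through adaptors. TLR2 pairs with TLR1 or TLR6 at the cell surface to bind bacterial lipopeptides, TLR4 binds lipopolysaccharide with its partner LY96 (MD-2) after CD14 has handed it over, and TLR7, TLR8 and TLR9 sense nucleic acids in endosomes. MYD88 is the adaptor all of these receptors use, and it nucleates the complex of IRAK kinases (the myddosome) that leads to NF-kB, MAP kinases and interferon regulatory factors. In the myeloid lineage CD14 is the classical surface marker of monocytes.

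Levels are given in CPM (reads scaled to the size of the library), computed from whole reads recovered from the deposited log2 values. Read totals were 17434804 to 19959907 per library. Values of the lines follow the order Molm-14, MV4-11, SKNO-1 throughout. Mitochondrial genes took 5.06% to 7.004% of the reads in 14 libraries and more than 10% in the other 4, which were Molm-14 RMC-4550 replicate 2 (14.99%), MV4-11 DMSO replicates 1 (12.6%) and 3 (14.6%), and MV4-11 RMC-4550 replicate 1 (10.5%). Of 11 markers of acute myeloid leukaemia cells, among them SPI1, CD33 and LYZ, 9 or 10 were above 1 CPM in every group. CD3E, CD3D, CD2, MS4A1 and EPCAM, which define T cells, B cells and epithelium, were at 3 reads or fewer in all 18 libraries, although 2 of 5 T and NK cell markers, 2 or 3 of 4 B cell markers and 2 of 3 epithelial and stromal markers were above 1 CPM. Each pair of lines was separable: of 9416 genes at 10 CPM or more in MV4-11, 61 stood under 1% of that level in Molm-14 and 29 in SKNO-1, and of 9261 such genes in Molm-14, 0 did in MV4-11 and 69 in SKNO-1. ETV4, a transcription factor gene induced by the MAPK cascade, fell in each line with RMC-4550 (log2 changes of -3.47, -1.63 and -3.28; limma, adjusted p = 7.26e-08, 0.000527 and 2.2e-07), as did DUSP6, which encodes a phosphatase that the cascade induces as feedback (-0.62, -0.93 and -1.30; limma, adjusted p = 0.00764, 0.00159 and 3.69e-05).

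TLR2 fell and LY96 rose with RMC-4550 in all 3 lines, while TLR1 and TLR6 rose in Molm-14 and SKNO-1 and MYD88 rose in MV4-11 and SKNO-1. The TLR2 call in SKNO-1 was lost on leaving out any 1 of 6 libraries, and those of TLR1 and TLR6 in Molm-14 on leaving out 3 and 5 of 6. Of the 10 genes, 6 entered the fit (at least 1 CPM in at least 3 of 18 libraries) and TLR7, TLR8, TLR9 and CD14 did not, so the counts below are over the genes tested and not over all 10. In Molm-14, 3 of 5 tested genes were called higher and 1 lower at an adjusted p under 0.05 in limma, where 46.7% of all 13971 genes tested were called, 21.5% higher and 25.2% lower. In MV4-11, 2 of 6 were called higher and 1 lower, where 13.9% of 14739 genes were called, 5.85% higher and 8.03% lower. SKNO-1 had 4 of 6 called higher and 1 lower, where 27.1% of 14670 genes were called, 10.8% higher and 16.2% lower. Higher genes made up 46.0%, 42.2% and 40.0% of the calls, and 50.8%, 51.9% and 50.6% under median-ratio scaling. Treated and vehicle libraries did not overlap for 4 of the 5 tested genes in Molm-14 (60% of all genes tested), 3 of 6 in MV4-11 (24.6%) and 6 of 6 in SKNO-1 (62%). The median log2 change of the genes tested was 0.35, 0.59 and 0.75, against -0.06, -0.01 and -0.05 over all genes tested. Among 12792 genes tested in every line, 3.11% were called higher in all 3 and 5.8% lower in all 3, which held for LY96 and, with the limit just given for SKNO-1, for TLR2 among 5 of the genes described here. A lower level in such bulk cultures can mean fewer cells that hold the transcript or less of it per cell, and these cannot be told apart.

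**Figure D1:**
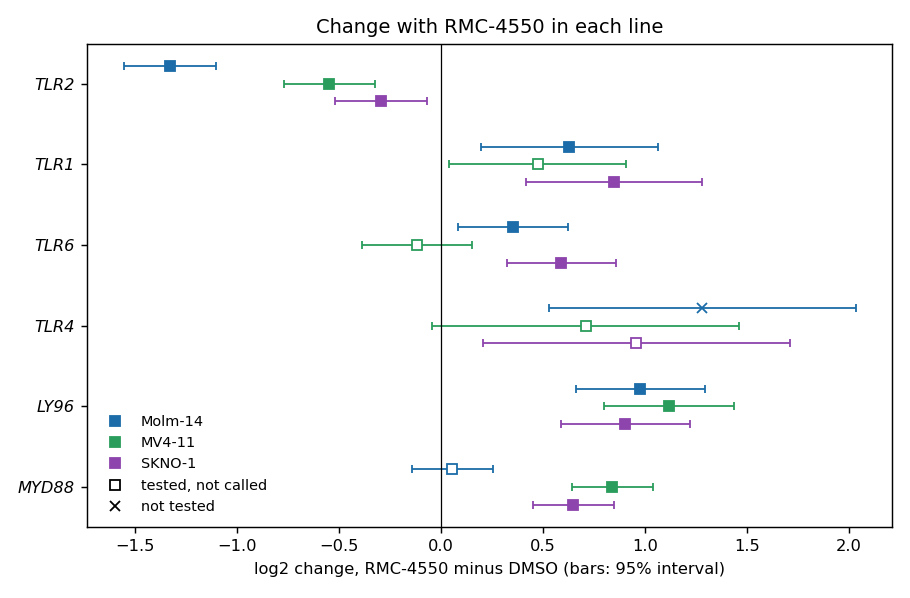
Log2 change with RMC-4550 (x axis, log2 units) for the 6 genes of the fit in each line, with bars for the 95% interval. Filled squares were called, open squares were tested and not called, and the cross is TLR4 in Molm-14, which was not tested; TLR2 lies left of 0 in every line (-1.33, -0.55 and -0.29), and LY96 lies right of 0 in every line (0.98, 1.12 and 0.90).

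TLR2 (ENSG00000137462, GRCh38 chromosome 4, plus strand, 153684070 to 153705702) encodes the surface receptor for lipopeptides that pairs with TLR1 or TLR6. Its promoter is shown because no other gene here fell in a line, as the 300 bases from 250 before to 50 after the RefSeq start, plus strand, at chr4:153684030-153684329 (GRCh38.p14). In these letters none of 4 motifs searched on both strands was found, and hence none stands in capitals. The motifs were the core of the interferon-stimulated response element (GAAA, 2 bases of any kind, GAAA), the AP-1 site (TGANTCA), the core bound by the myeloid factor PU.1 (GAGGAAGT) and a short pattern of the NF-kB site (GGGNNTTCC). They were present in 3.57%, 7.71%, 2.59% and 6.58% of 35116 RefSeq promoters of this length. Forms of the NF-kB site with other spacing were not searched, so its absence holds for this pattern only.
TLR2: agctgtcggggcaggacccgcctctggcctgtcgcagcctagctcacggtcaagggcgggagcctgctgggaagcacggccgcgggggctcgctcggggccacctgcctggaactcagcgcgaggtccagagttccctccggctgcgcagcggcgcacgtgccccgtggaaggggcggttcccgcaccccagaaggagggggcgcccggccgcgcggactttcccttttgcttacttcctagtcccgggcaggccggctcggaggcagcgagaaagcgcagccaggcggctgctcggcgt
The vehicle level of TLR2 was far lower in Molm-14 than in the other lines. In Molm-14 it was 4.17, 4.21 and 3.51 CPM with DMSO and 1.42, 1.79 and 1.47 CPM with RMC-4550. In MV4-11 the values were 93.1, 85.0 and 98.9 CPM with DMSO and 68.4, 61.5 and 59.6 CPM with the inhibitor. SKNO-1 gave 63.8, 67.9 and 63.2 CPM with DMSO and 52.0, 51.6 and 55.3 CPM with RMC-4550. Within each line all 3 treated libraries lay below all 3 vehicle libraries. The log2 change was -1.33 in Molm-14 (SE 0.106, n = 3 per group; limma, adjusted p = 1.24e-07), to 0.398 of the vehicle level. It was -0.55 in MV4-11 (limma, adjusted p = 0.00234) and -0.29 in SKNO-1 (limma, adjusted p = 0.0497). The SE of a gene is the same in each line because the fit pools the spread of the 6 groups. The SKNO-1 call was at the threshold: leaving out any 1 of its 6 libraries ended it, with changes of -0.33 to -0.26 and adjusted p of 0.0784 to 0.154 (limma), and median-ratio scaling gave -0.23 (adjusted p = 0.15).

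**Figure D2:**
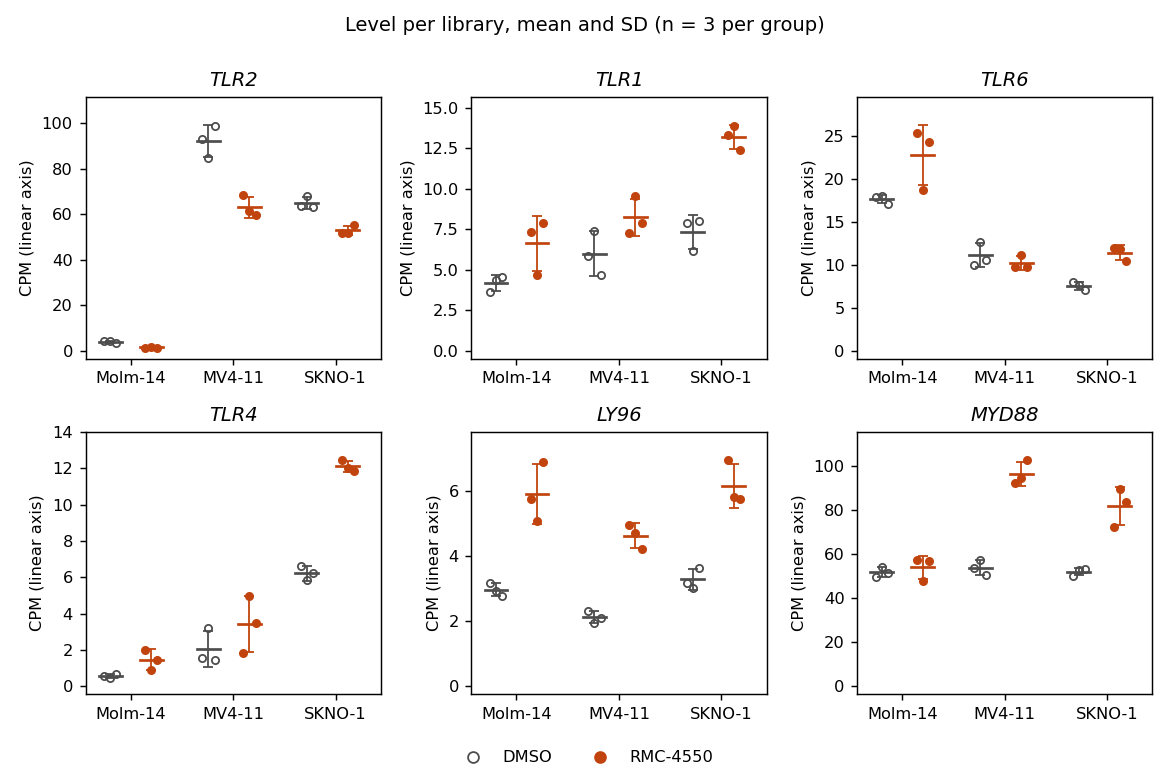
CPM on linear axes in each of the 18 libraries for the 6 genes of the fit, with DMSO as open and RMC-4550 as filled circles; horizontal lines are group means and bars the SD (n = 3). TLR2 stands at 3.51 to 4.21 CPM in Molm-14 vehicle libraries against 63.2 to 98.9 CPM in those of the other lines, and MYD88 stands between 49.8 and 57.5 CPM in all 9 vehicle libraries.

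TLR1 (ENSG00000174125, chromosome 4, minus strand, 38790677 to 38856817) and TLR6 (ENSG00000174130, chromosome 4, minus strand, 38823715 to 38856817) encode the co-receptors that pair with TLR2. The annotated genes overlap on the same strand, and 5.33% of the 50-base stretches of TLR1 transcripts occur in TLR6 transcripts (4.10% the other way). How reads in shared stretches were assigned is not given in the sources used here, so the split of reads between both genes is uncertain.

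TLR1 was 3.61, 4.38 and 4.57 CPM in Molm-14 with DMSO and 7.32, 4.68 and 7.86 CPM with RMC-4550. The SKNO-1 values were 7.89, 6.15 and 8.004 CPM with DMSO and 13.3, 13.9 and 12.4 CPM with the inhibitor. In these lines the groups did not overlap, and the lowest treated Molm-14 library was replicate 2, the one with 14.99% mitochondrial reads. The gene rose by a log2 change of 0.63 in Molm-14 (SE 0.203; limma, adjusted p = 0.0187) and 0.85 in SKNO-1 (limma, adjusted p = 0.00533). The Molm-14 call was lost without DMSO replicate 1, RMC-4550 replicate 1 or RMC-4550 replicate 3 (log2 changes of 0.53, 0.54 and 0.49; limma, adjusted p = 0.0797, 0.0629 and 0.0832), and without the library high in mitochondrial reads the change was 0.86. In MV4-11 TLR1 was 5.87, 7.42 and 4.67 CPM with DMSO and 7.29, 9.52 and 7.87 CPM with RMC-4550. Those groups overlapped, and the change of 0.47 was not called (95% interval 0.04 to 0.90; limma, adjusted p = 0.148); without DMSO replicate 2 it was 0.64 and was called (limma, adjusted p = 0.0439).

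TLR6 was highest in Molm-14. It was 17.9, 17.9 and 17.1 CPM there with DMSO and 25.3, 18.7 and 24.2 CPM with RMC-4550, with the library high in mitochondrial reads again the lowest of the treated ones. SKNO-1 gave 7.98, 7.62 and 7.06 CPM with DMSO and 11.98, 11.8 and 10.4 CPM with the inhibitor. Neither line's groups overlapped. The log2 changes were 0.35 in Molm-14 (SE 0.126; limma, adjusted p = 0.0313) and 0.59 in SKNO-1 (limma, adjusted p = 0.00241). The Molm-14 call was lost on leaving out any library of that line other than RMC-4550 replicate 2 (limma, adjusted p = 0.0624 to 0.114), and without that replicate the change was 0.49. In MV4-11 the vehicle libraries held 10.0, 12.7 and 10.6 CPM and the treated ones 9.72, 11.2 and 9.69 CPM. They overlapped, and the change of -0.12 was not called (95% interval -0.385 to 0.15; limma, adjusted p = 0.613).

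TLR4 (ENSG00000136869, chromosome 9, plus strand, 117704175 to 117724730) encodes the lipopolysaccharide receptor. The annotated gene overlaps AL160272.2 on the same strand, so reads of that locus may be shared. Its promoter, at chr9:117704153-117704452 (GRCh38.p14, plus strand, the same 300-base window of RefSeq), is shown because it held 2 matches to the PU.1 core. Both lie on the opposite strand, as ACTTCCTC starting 173 and 101 bases before the start, and are in capitals. A match describes the letters and is no evidence of binding. Of the other promoters searched, that of TLR9 held an AP-1 and a PU.1 match, that of CD14 an AP-1 match and those of TLR6 and TLR8 none.
TLR4: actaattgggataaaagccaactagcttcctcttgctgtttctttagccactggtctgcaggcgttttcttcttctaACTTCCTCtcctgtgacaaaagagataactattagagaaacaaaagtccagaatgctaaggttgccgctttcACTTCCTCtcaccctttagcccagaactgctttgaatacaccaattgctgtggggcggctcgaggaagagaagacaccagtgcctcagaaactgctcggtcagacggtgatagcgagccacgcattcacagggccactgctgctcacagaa
TLR4 ran from Molm-14, through MV4-11, to SKNO-1 in rising order. In Molm-14 it was 0.556, 0.461 and 0.669 CPM with DMSO and 2.02, 0.897 and 1.47 CPM with RMC-4550, which is 8 to 12 reads against 14 to 37 reads. In MV4-11 it was 1.56, 3.22 and 1.44 CPM with DMSO and 1.85, 4.96 and 3.502 CPM with the inhibitor. In SKNO-1 it was 6.64, 5.83 and 6.22 CPM with DMSO and 12.4, 12.02 and 11.9 CPM with RMC-4550. Treated libraries lay above the vehicle ones in SKNO-1 and in Molm-14, whereas the MV4-11 groups overlapped. No change of TLR4 was called. The log2 change in SKNO-1 was 0.96 (SE 0.355, 95% interval 0.21 to 1.71; limma, adjusted p = 0.0564). Leaving out any 1 SKNO-1 library kept it uncalled (limma, adjusted p = 0.103 to 0.14), as did no filter on low values (0.0951). It was called under median-ratio scaling (limma, adjusted p = 0.04), voom weights (0.00298) and a separate fit of the line (3.15e-07). A covariate for the mitochondrial share (0.000206), a replicate block, log2(CPM + 1) and log2(CPM + 0.1) also gave a call. The change stayed uncalled under quantile normalization and eBayes without a trend. In MV4-11 it was 0.71 (95% interval -0.04 to 1.46; limma, adjusted p = 0.224), and it was called without DMSO replicate 2 (1.07; limma, adjusted p = 0.0412) or without RMC-4550 replicate 1 (1.10; limma, adjusted p = 0.0436). In MV4-11, libraries with under 10% mitochondrial reads gave a change of 0.37 (2 treated and 1 vehicle library) and those above that share gave 0.30 (1 treated and 2 vehicle), so neither has a replicate in both arms. TLR4 was under the filter within Molm-14; there the difference of 1.28 was untested in the main analysis and had an adjusted p of 0.0119 in limma with no filter on low values.

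LY96 (ENSG00000154589, on chromosome 8) encodes MD-2, the secreted partner that holds lipopolysaccharide for TLR4. It was 3.17, 2.94 and 2.79 CPM in Molm-14 with DMSO and 5.74, 5.06 and 6.90 CPM with RMC-4550. MV4-11 held 2.31, 1.94 and 2.10 CPM with DMSO and 4.96, 4.71 and 4.21 CPM with the inhibitor. The SKNO-1 libraries gave 3.18, 3.03 and 3.63 CPM with DMSO and 6.94, 5.799 and 5.75 CPM with RMC-4550. All treated libraries lay above all vehicle libraries of any line. The rise was log2 0.98, 1.12 and 0.90 (SE 0.150; limma, adjusted p = 7.72e-05, 9.62e-05 and 0.000301), and no difference in it between lines was called (differences of 0.14, -0.07 and -0.21, where the 95% interval of the last runs from -0.66 to 0.23). Each call held on leaving out any single library of its line (limma, adjusted p up to 0.0026). These rest on 35 to 150 reads per library.

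CD14 (ENSG00000170458, chromosome 5, minus strand, 140631728 to 140633701), the co-receptor that passes lipopolysaccharide to TLR4 and LY96, was nearly silent. Molm-14 held 3, 3 and 4 reads with DMSO and 1, 8 and 9 reads with RMC-4550. MV4-11 held 1, 2 and 3 reads with DMSO and 6, 1 and 4 reads with the inhibitor, and SKNO-1 held 1, 3 and 1 against 0, 0 and 2 reads. The groups overlapped in each line, and no change was detectable at this depth. The other genes of the list of monocyte and macrophage markers were low too: CD14, CD163, MRC1, MARCO, VCAN, FCN1 and CLEC7A together summed to 1.11 to 1.83 CPM in Molm-14 with DMSO and 2.88 to 3.39 CPM with RMC-4550. Their sums were 0.915 to 1.08 and 1.47 to 2.06 CPM in MV4-11, and 1.94 to 2.66 and 2.48 to 2.74 CPM in SKNO-1. In each vehicle group 0 of the 7 were above 1 CPM, and 1 was in each treated group. MRC1 was at 3 reads or fewer in both FLT3-ITD lines and FCN1 in Molm-14 and SKNO-1. The sums were higher in the treated libraries of the FLT3-ITD lines and overlapped in SKNO-1. In SKNO-1 limma tested 1 gene of the list, MARCO, and called it higher (log2 change of 1.43). The 1 gene tested in Molm-14 was not called (1.22), and 0 were tested in MV4-11. The part of these markers in the rise of LY96 was not tested. Genes of the monocytic lineage on the list of leukaemia markers were not low. CSF1R, the receptor for macrophage colony-stimulating factor, was 12.6 ± 2.25, 56.3 ± 11.5 and 132 ± 4.38 CPM with DMSO and 70.2 ± 13.01, 129 ± 23.5 and 277 ± 16.8 CPM with RMC-4550 (SD, n = 3), and it rose in all 3 lines (log2 2.47, 1.20 and 1.06; limma, adjusted p = 3.26e-08, 0.000191 and 0.000253). ITGAM, the integrin chain CD11b of myeloid cells, rose in MV4-11 and SKNO-1 (log2 0.46 and 0.78; limma, adjusted p = 0.000454 and 9.94e-07) and was not called in Molm-14 (-0.06; limma, adjusted p = 0.526). FCGR1A, also on that list, went the other way. Its mean fell from 20.1 to 10.9 CPM in Molm-14 and from 22.6 to 16.9 CPM in SKNO-1, and limma called both falls. In MV4-11 it went from 28.6 to 21.6 CPM, which was not called. Over the list, limma called 3 of 9 tested genes higher and 2 lower in Molm-14. The calls were 2 higher and 0 lower of 10 in MV4-11, and 3 higher and 1 lower of 10 in SKNO-1. The part of these genes in the changes of LY96 and the receptors was not tested.

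MYD88 (ENSG00000172936, chromosome 3, plus strand, 38138478 to 38143022) encodes the adaptor that the receptors share. Its promoter, at chr3:38138411-38138710 (GRCh38.p14, plus strand), is shown because it held the core of the interferon-stimulated response element, GAAAGCGAAA, starting 61 bases before the RefSeq start and printed in capitals. Of the 35116 promoters, 1255 held a match to that motif.
MYD88: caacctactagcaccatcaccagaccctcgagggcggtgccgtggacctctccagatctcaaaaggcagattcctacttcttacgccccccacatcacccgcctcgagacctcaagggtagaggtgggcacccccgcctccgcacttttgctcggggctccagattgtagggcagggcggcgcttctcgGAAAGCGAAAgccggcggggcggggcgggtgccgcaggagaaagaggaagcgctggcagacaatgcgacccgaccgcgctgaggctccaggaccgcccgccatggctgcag
MYD88 was between 49.8 and 57.5 CPM in the vehicle cultures of all 3 lines and rose in MV4-11 and SKNO-1. In MV4-11 it was 53.7, 57.5 and 50.7 CPM with DMSO and 92.5, 94.5 and 102.7 CPM with RMC-4550. In SKNO-1 it was 50.1, 52.7 and 53.4 CPM with DMSO and 72.4, 89.7 and 83.8 CPM with the inhibitor. Treated libraries lay above all vehicle libraries in both. The log2 change was 0.84 in MV4-11 (SE 0.094; limma, adjusted p = 1.86e-05) and 0.65 in SKNO-1 (limma, adjusted p = 8.57e-05). In Molm-14 the values were 49.8, 54.3 and 51.4 CPM with DMSO and 57.4, 47.8 and 56.7 CPM with RMC-4550, and the groups overlapped. The change there was 0.05 (95% interval -0.14 to 0.25; limma, adjusted p = 0.653), with the treated library high in mitochondrial reads the lowest of the 6, and 0.14 without it. Quantile normalization gave 0.21 in Molm-14 and a call (limma, adjusted p = 0.035). Interferon-stimulated genes rose in all 3 lines, also in Molm-14 where MYD88 was not called. IFIT1, IFIT2, IFIT3, IFI44, IFI44L, ISG15, MX2, OAS1, OAS2, OAS3 and RSAD2 were called higher in every line, which was 11 of 11 tested in Molm-14, and with MX1 12 of 12 in each of the other lines, with median log2 changes of 1.97, 4.19 and 2.33. Of all genes tested, 21.5%, 5.85% and 10.8% were called higher in the 3 lines. The part of the interferon-stimulated genes in the MYD88 values was not tested.

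TLR7 (ENSG00000196664, chromosome X, plus strand, 12867083 to 12890380), a sensor of single-stranded RNA, had too few reads for the main test. SKNO-1 held 2, 5 and 5 reads with DMSO and 33, 18 and 27 reads with RMC-4550, which is 0.186 ± 0.081 against 1.20 ± 0.348 CPM (SD, n = 3). These groups did not overlap, and with no filter on low values the difference was a log2 change of 2.60 (SE 0.761; limma, adjusted p = 0.0388), a value that depends on the 0.5 added to each read count. MV4-11 held 3, 4 and 0 reads against 3, 12 and 9, which overlapped. Molm-14 held 0, 0 and 1 read with DMSO and 0 in each of the treated libraries, where a count of 0 allows up to 3 reads.

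TLR8 (ENSG00000101916, chromosome X, plus strand, 12906620 to 12923169), another sensor of single-stranded RNA, had 0 to 8 reads in any library, and TLR9 (ENSG00000239732, chromosome 3, minus strand, 52221080 to 52226163), the sensor of unmethylated CpG DNA, had 1 to 9. The highest TLR8 counts were 8, 3 and 4 reads in SKNO-1 with RMC-4550, against 0, 1 and 3 with DMSO. The highest TLR9 counts were 9 reads, in Molm-14 RMC-4550 replicate 2 and SKNO-1 RMC-4550 replicate 2. Vehicle and treated groups of both genes overlapped in each line. TLR8 has an annotated antisense neighbour (TLR8-AS1) and TLR9 shares its strand with AC097637.1, so these few reads may not all be theirs. Counts this low cover sampling error only, since amplified reads without molecular identifiers are not independent molecules.

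**Figure D3:**
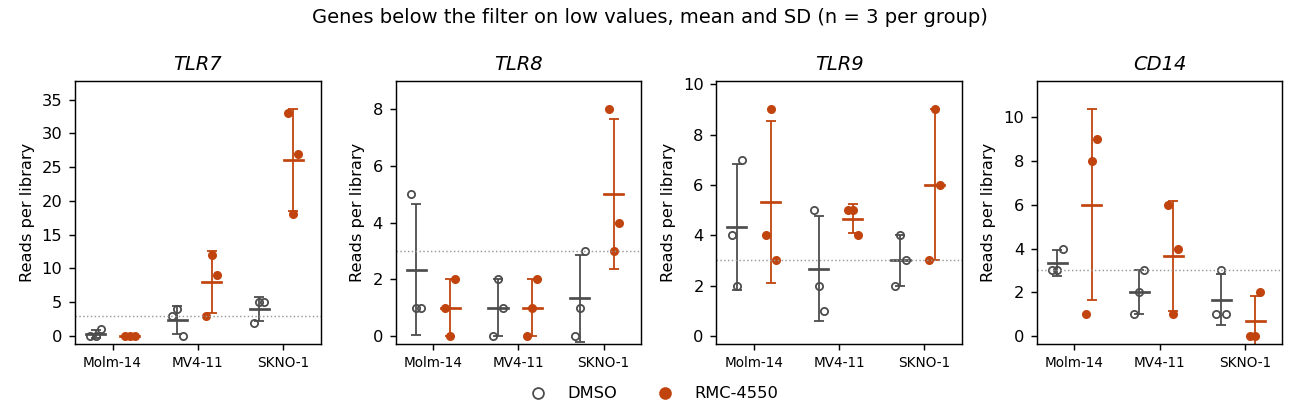
Reads per library of the 4 genes below the filter on low values in the 6 groups, with DMSO as open and RMC-4550 as filled circles, group mean and SD (n = 3), and a dotted line at 3 reads. TLR7 in SKNO-1 with RMC-4550, at 18 to 33 reads, is the one group that stands clear, and TLR8, TLR9 and CD14 stay at 9 reads or fewer.

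Between the vehicle cultures, TLR2, TLR4 and TLR6 were called different in every pair of lines and MYD88 in none. MV4-11 against Molm-14 had 2 of 6 genes called higher (TLR2 and TLR4) and 2 lower (TLR6 and LY96), where 54.2% of 14472 genes were called, 25.1% higher and 29.1% lower. SKNO-1 against Molm-14 had 3 higher (TLR1, TLR2 and TLR4) and 1 lower (TLR6), where 65.3% of 14793 genes were called, 31.8% higher and 33.6% lower. SKNO-1 against MV4-11 had 2 higher (TLR4 and LY96) and 2 lower (TLR2 and TLR6), where 42.5% of 14748 genes were called, 20.1% higher and 22.4% lower. The libraries of both lines did not overlap for 5, 4 and 4 of the 6 genes in these contrasts, against 61.2%, 84.3% and 53.1% of all genes. These counts are near the background and say nothing about the 6 genes in particular. TLR2 was 23.2 times as high in MV4-11 as in Molm-14 (log2 4.53; limma, adjusted p = 1.23e-14) and 16.3 times as high in SKNO-1 as in Molm-14 (log2 4.03; limma, adjusted p = 1.6e-14). SKNO-1 lay below MV4-11 (log2 difference -0.50; limma, adjusted p = 0.00134), giving the order MV4-11, SKNO-1, Molm-14 with each step beyond the spread.

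TLR4 took the order SKNO-1, MV4-11, Molm-14, with steps of log2 1.67 and 1.75 (SE 0.355; limma, adjusted p = 0.00148 and 0.000673). TLR6 ran the other way, from Molm-14 to MV4-11 (log2 -0.68; limma, adjusted p = 0.000334) and from MV4-11 to SKNO-1 (log2 -0.55; limma, adjusted p = 0.00268). TLR1 was higher in SKNO-1 than in Molm-14 (log2 0.80; limma, adjusted p = 0.00245), and MV4-11 lay between them without a called step to either (limma, adjusted p = 0.0507 from Molm-14 and 0.23 to SKNO-1). With all libraries kept, TLR1 was called higher in MV4-11 than in Molm-14 with a covariate for the mitochondrial share (limma, adjusted p = 4.19e-05). Median-ratio scaling (0.0421), a replicate block (0.0476) and a mean of at least 5 CPM (0.0491) also gave that call. The other fits of all libraries did not (0.0894 with no filter on low values). Without the 4 libraries high in mitochondrial reads, 2 of them MV4-11 vehicle libraries, the difference was log2 0.83. That setting leaves 1 MV4-11 vehicle library, which the fit assumes to vary as the other groups do. LY96 was lowest in MV4-11, under Molm-14 by a log2 difference of -0.48 (limma, adjusted p = 0.013) and under SKNO-1 (log2 0.62 higher there; limma, adjusted p = 0.00362), and Molm-14 and SKNO-1 did not differ beyond their spread (log2 0.14, 95% interval -0.18 to 0.46; limma, adjusted p = 0.427). For MYD88 the 3 differences were between -0.05 and 0.06, with 95% intervals inside -0.25 to 0.26 (limma, adjusted p = 0.621 to 0.951).

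Compared per length of the longest annotated transcript, the mean vehicle levels in Molm-14 were 15.6 CPM per kb for MYD88, 4.88 for LY96, 3.00 for TLR6, 1.47 for TLR1, 0.943 for TLR2 and 0.044 for TLR4. In MV4-11 TLR2 came first with 21.98 CPM per kb and MYD88 second with 16.3, and in SKNO-1 MYD88 had 15.7 and TLR2 15.5. TLR4 was the lowest of the 6 in every line, at 0.161 CPM per kb in MV4-11 and 0.485 in SKNO-1. Other places hang on the transcript chosen: with the median length of coding transcripts, SKNO-1 gave 33.4 CPM per kb for TLR2 and 27.3 for MYD88, and Molm-14 gave 12.2 CPM per kb for TLR6, 6.68 for TLR1 and 5.72 for LY96.

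The response to RMC-4550 differed between lines for TLR2 and MYD88. TLR2 changed by 0.78 more (less of a fall) in MV4-11 than in Molm-14 on the log2 scale (SE 0.150; limma, adjusted p = 0.00286) and by 1.03 more in SKNO-1 than in Molm-14 (limma, adjusted p = 0.000373). MYD88 changed by 0.78 more in MV4-11 than in Molm-14 (SE 0.132; limma, adjusted p = 0.00126) and by 0.59 more in SKNO-1 than in Molm-14 (limma, adjusted p = 0.00856). These were the 2 of 5 genes called in each of both contrasts, both of them higher, where 19.5% (9.12% higher, 10.3% lower) and 10.9% (4.14% higher, 6.73% lower) of all genes tested were called. The remaining 3 genes were not called in either, and TLR4 was not tested in them. Between SKNO-1 and MV4-11 limma called 0 of 6 genes, with 1 (TLR6) at an unadjusted p under 0.05, and voom weights also called 0; there 1.66% of 13897 genes were called, 0.482% higher and 1.17% lower. TLR6 rose more in SKNO-1 than in MV4-11 by 0.71 (95% interval 0.33 to 1.09; limma, adjusted p = 0.0583). Its response was 0.47 lower in MV4-11 than in Molm-14 (difference -0.47; limma, adjusted p = 0.0738). Without the 4 libraries high in mitochondrial reads these differences were 0.87 and -0.77, values that rest on 1 MV4-11 vehicle library. With all libraries kept, quantile normalization called both (0.77 and -0.58; limma, adjusted p = 0.0154 and 0.0202). A covariate for the mitochondrial share also called both (0.85 and -0.72; limma, adjusted p = 0.000248 and 0.00116), whereas voom weights and separate fits called neither.

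Partners and relatives of the receptors were higher in every line, with a median log2 change of 0.90, 1.07 and 0.86 over the 3 genes tested. CD180 and LY86 (a TLR4-like receptor and its MD-2-like partner) and CD36 (a scavenger receptor that works with TLR2 and TLR6) were called higher in all 3 lines, and LBP, the fourth gene of that list, was not tested. CD36 went from 21.5 ± 0.431 to 99.3 ± 5.69 CPM in SKNO-1 (SD, n = 3; log2 2.20; limma, adjusted p = 3.25e-08), and its vehicle and treated libraries were apart in the other lines as well, with changes of 1.37 in Molm-14 and 1.07 in MV4-11 (limma, adjusted p = 2.37e-06 and 0.000126). CD180 rose from 54.1 ± 14.3 to 123 ± 18.7 CPM in MV4-11 (log2 1.21; limma, adjusted p = 7.54e-05). LY86 rose most in Molm-14, from 63.4 ± 1.81 to 118.5 ± 5.36 CPM (log2 0.90; limma, adjusted p = 1.09e-06). Among the Toll-like receptors outside the 10, TLR10 was called higher in Molm-14 (log2 2.51; limma, adjusted p = 0.00071) and SKNO-1 (1.59; limma, adjusted p = 0.0261) and not in MV4-11 (0.72; limma, adjusted p = 0.4). TLR5, the flagellin receptor, had 3 reads or fewer in each Molm-14 library and was 12.3 ± 0.667 CPM in SKNO-1 with DMSO. TLR3 was not tested in any line.

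UNC93B1, the chaperone that carries TLR7, TLR8 and TLR9 to endosomes, was the one gene of 6 in the list of receptor traffic and folding called higher in each line (log2 0.86, 0.77 and 0.56; limma, adjusted p = 5.68e-05, 0.000623 and 0.00378). Of 7 endolysosomal nucleases and proteases, which free or trim receptor ligands, 5 were tested, and 4, 3 and 2 were called higher with 0 lower, against 21.5%, 5.85% and 10.8% of all genes called higher. DNASE2, which digests DNA in lysosomes, was called higher in all 3 (log2 0.47, 0.98 and 1.27; limma, adjusted p = 0.0182, 0.000364 and 1.36e-05).

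Downstream of the receptors the calls were mixed in sign, and 46.7%, 13.9% and 27.1% of all genes were called in the 3 lines, so the shares called here are near or under the background in Molm-14 and MV4-11. Of 10 adaptors and myddosome kinases, 9 were tested: 1 was called higher and 2 lower in Molm-14, 1 higher in MV4-11, and 3 higher and 2 lower in SKNO-1. TICAM1, the TRIF adaptor of TLR3 and TLR4, rose by 0.41 in MV4-11 and 0.32 in SKNO-1 (limma, adjusted p = 0.00767 and 0.0171). IRAK1, the kinase next to MYD88, had 284, 90.3 and 264 CPM in treated Molm-14 against 428, 447 and 473 CPM with DMSO, with the lowest value in the library at 14.99% mitochondrial reads (log2 -1.25; limma, adjusted p = 0.00951). In MV4-11 it was also lowest in the 3 libraries over 10% mitochondrial reads, at 145 to 179 CPM, against 317 to 327 CPM in the other 3. Of 15 genes of the kinase and NF-kB arm, all tested, 2 were called higher and 2 lower in Molm-14 and 4 lower in SKNO-1, with median log2 changes of -0.11, 0.08 and -0.31. In MV4-11 limma called 0 of the 15, with 1 at an unadjusted p under 0.05.

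Among 5 interferon regulatory factors, IRF7, which acts below TLR7 and TLR9, was called higher in all 3 lines (log2 1.53, 1.26 and 0.86; limma, adjusted p = 6.22e-06, 0.000177 and 0.00202), and IRF5 in Molm-14 and SKNO-1. Of 10 brakes of the pathway, SOCS1, an inhibitor of cytokine signalling, rose in every line (log2 1.66, 1.26 and 1.08; limma, adjusted p = 1.36e-06, 9.95e-05 and 0.000175). TNFAIP3, the ubiquitin editor A20 that restrains NF-kB and is itself an NF-kB target, fell in every line (log2 -0.78, -0.45 and -0.81; limma, adjusted p = 2.17e-07, 0.000239 and 2.36e-07). NFKBIA, another brake of NF-kB, was called higher in Molm-14 and MV4-11. Of the 10 brakes 9 were tested, with 4, 2 and 1 called higher and 2, 1 and 1 lower. Among all genes tested, 46.7%, 13.9% and 27.1% were called either way. Inflammatory targets fell where they were called. TNF went from 83.6 ± 1.64 to 17.5 ± 1.59 CPM in Molm-14, from 86.6 ± 6.53 to 18.8 ± 0.617 CPM in MV4-11 and from 16.4 ± 0.698 to 1.94 ± 0.351 CPM in SKNO-1 (SD, n = 3; log2 -2.26, -2.20 and -3.08; limma, adjusted p = 1.56e-09, 3.11e-09 and 2.14e-10). IL1B and CXCL8 were called lower in MV4-11 and CCL2 in SKNO-1. Of 9 targets, 4, 5 and 6 were tested. In all, 1, 3 and 2 were called lower and 0 higher, against 25.2%, 8.03% and 16.2% of all genes called lower. The share in Molm-14 is near that background.

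**Figure D4:**
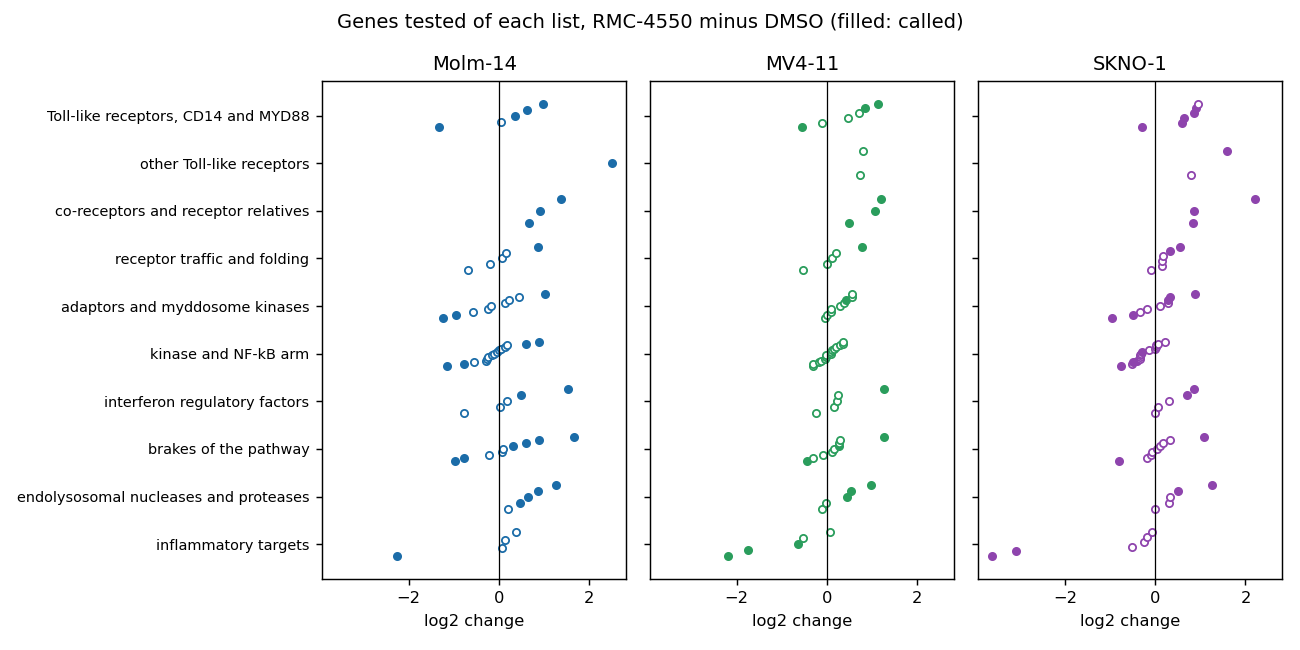
Log2 change with RMC-4550 (x axis, log2 units) of each tested gene in 10 gene lists of the pathway, 1 panel per line; filled circles were called and open circles were not. The list of co-receptors and receptor relatives has its 3 tested genes filled and right of 0 in each panel, and TNF is the leftmost circle of the inflammatory targets in Molm-14 and MV4-11, at -2.26 and -2.20.

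By the Pearson correlation of log2 values over the 18 libraries, the 3 genes most like TLR2 were PLEKHH2 (r = 0.994), CPNE7 (0.991) and GSAP (0.989). For TLR4 they were CELSR2 (0.983), AMPD3 (0.982) and THAP6 (0.976), and for TLR1 CAPN3 (0.950), NPEPPSP1 (0.950) and CARF (0.947). TLR6 was most like CAST (0.964), MIA2 (0.962) and ADD3 (0.959), LY96 like PTAFR (0.925), CD86 (0.922) and SPIB (0.920), and MYD88 like IFI35 (0.965), SP110 (0.947) and SAMD9L (0.917). These values describe 18 libraries that fall into 3 lines, so a shared difference between lines weighs heavily in them, and by Spearman's rho only 4 of the 18 genes were again among the nearest 3. Within the family, TLR1 and TLR4 ran together (Pearson r = 0.90) and TLR2 and TLR6 ran apart (Pearson r = -0.90), over the same 18 libraries.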

How the data were processed

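Poly(A) RNA of 18 cultures was read on a DNA nanoball instrument, according to the labels' protocols. The authors deposited 1 table of log2 values per gene and sample. The submitters' processing notes name FastQC, STAR, limma and GRCh38, and the read counter and annotation are not given in the sources used here. Reading each deposited value as the log2 of (reads + 0.5), scaled to library size, gave whole reads for 100% of values under 200 reads (tolerance 0.05), with scaling factors of 0.890 to 1.11. Symbols matched 40069 of 40184 IDs. The fit used limma 3.58.1 (R 4.3.3; lmFit, then eBayes with trend) on the deposited log2 values of 16262 genes, two-sided, with 1 coefficient per group. A gene was tested in a contrast if 3 or more samples of its groups reached 1 CPM (for a difference between responses, 3 or more in each line). Benjamini-Hochberg adjustment ran over the genes tested, with calls under 0.05. On simulated data for Molm-14, with 200 changed genes of 15686, 98 of 100 genes at 2-fold and 100 of 100 at 4-fold were recovered, and 0.503% of calls were unchanged genes. The simulation gave every gene the same fixed spread beyond sampling error, and no library an excess of mitochondrial reads. Only genes at a mean of 3 CPM or more in Molm-14 with DMSO were changed. The recovery therefore does not measure how the fit does at the real spread or on lower genes. Positions and lengths come from GENCODE 29 and promoters from RefSeq (GRCh38.p14; 7 of the 10 genes). P-values measure the spread between the labelled biological replicates. The genes and lists were chosen with earlier results of these data known. All 10 genes are named, with the 3 nearest genes of each one in the fit. A list gene could be named only if called alike in all 3 lines or among the 3 largest called changes of a line, and markers are named as listed; TLR5, LBP and TLR3 were named after their values were seen. Alternatives were log2(CPM + 1), log2(CPM + 0.1), no filter, a mean of at least 5 CPM, 2 other scalings, separate fits, a replicate block, no trend, voom weights, a covariate for the mitochondrial share, and leaving out each library. Leaving out the 4 libraries high in mitochondrial reads was chosen after seeing the data.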

Additional observations from a re-analysis of the deposited data

Results flagged for a closer look

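The response of TLR2 to RMC-4550 differed between lines in limma's test of the difference itself. The log2 change was 0.78 more in MV4-11 than in Molm-14, where the changes were -0.55 and -1.33, and 1.03 more in SKNO-1 than in Molm-14, where SKNO-1 changed by -0.29. The response of MYD88 differed in the same 2 contrasts. Its log2 change was 0.78 more in MV4-11 than in Molm-14 (0.84 against 0.05) and 0.59 more in SKNO-1 than in Molm-14 (0.65 against 0.05). Both contrasts share the Molm-14 libraries. These 4 differences stayed called when any 1 library was left out, with ranges of 0.72 to 0.89 and 0.97 to 1.14 for TLR2 and 0.70 to 0.83 and 0.51 to 0.68 for MYD88 (limma, adjusted p up to 0.0289).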

How the results depend on the processing

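Over the alternatives run, 929 values of single genes kept their direction and side of the threshold, 30 gained a call, 23 lost one and 16 changed sign; the cause was not tested. The count of genes called higher in Molm-14 was 3 and fell to 1 with separate fits; leaving out 1 library gave 1 to 3. It stayed 3 while TLR1 lost its call with quantile normalization (0.38, adjusted p = 0.154 in limma) and TLR6 with no filter on low values (adjusted p = 0.076 in limma). In MV4-11 the count called higher was 2, 1 with a mean of at least 5 CPM, and 2 to 4 on leaving out a library. LY96 and TLR4 had means under 5 CPM over the 18 libraries, so that setting left both out untested. The 1 gene called lower in SKNO-1, TLR2, became 0 with no filter on low values, median-ratio scaling, quantile normalization, the replicate block and eBayes without a trend, and 0 on leaving out any library. For MV4-11 against Molm-14 with DMSO, the count higher was 1 to 2 on leaving out a library and the count lower 1 at a mean of at least 5 CPM, at which SKNO-1 against MV4-11 had 0 higher. Both counts at 5 CPM again lack LY96 and TLR4, which were not tested there. For the response of MV4-11 against Molm-14, the count lower went from 0 to 1 with quantile normalization and without the 4 libraries high in mitochondrial reads, to 2 with a covariate for the mitochondrial share, and was 0 to 1 on leaving out a library. For SKNO-1 against MV4-11 it rose from 0 to 1 higher at a mean of at least 5 CPM, with both other scalings and without the 4 libraries, and to 2 with that covariate.

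Values that changed sign were small and uncalled. With quantile normalization these were LY96 in SKNO-1 against Molm-14 (-0.18 for DMSO, 0.18 for the response) and the TLR1 response of MV4-11 against Molm-14 (0.093). With the mitochondrial covariate they were MYD88 in SKNO-1 against Molm-14 with DMSO (-0.0030) and TLR1 in SKNO-1 against MV4-11 with DMSO (-0.10). Without the 4 libraries, which leaves 1 MV4-11 vehicle library, TLR1 gave -0.024 in that contrast and -0.012 for the response of SKNO-1 against Molm-14. Leaving out 1 library gave -0.022 to 0.041 for MYD88 in SKNO-1 against Molm-14 with DMSO, -0.39 to 0.011 and -0.012 to 0.36 for the TLR1 responses of MV4-11 and SKNO-1 against Molm-14, -0.18 to 0.045 for LY96 of SKNO-1 against Molm-14, and -0.14 to 0.57 for TLR4 of SKNO-1 against MV4-11.

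Replicate numbers showed no pairing of samples that held in all 3 lines. Same-numbered libraries deviated together with r of -0.11, -0.015 and -0.028 in Molm-14, 0.70, 0.84 and -0.63 in MV4-11 and 0.32, 0.079 and 0.13 in SKNO-1. Of 9 DMSO libraries, 4 correlated best with their own number. In MV4-11, DMSO replicate 3 went with RMC-4550 replicate 1 (r = 0.87), and both held over 10% mitochondrial reads. A pairing within a line can therefore not be excluded. With the replicate block, TLR2 in SKNO-1 was uncalled (adjusted p = 0.0527 in limma), TLR4 in SKNO-1 was called (adjusted p = 0.0134), as was TLR1 in MV4-11 against Molm-14 with DMSO (adjusted p = 0.0476), and no other call changed.

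Neither other scaling moved the median of all genes by over 0.1. Over all genes, the MV4-11 calls were 862 higher and 1183 lower, against 328 and 346 with separate fits, 1788 and 3266 with the mitochondrial covariate, and 1213 and 2684 without the 4 libraries. For SKNO-1 they were 1588 and 2381, against 3576 and 4875, 2938 and 4333, and 3111 and 4707 in the same order. For the responses, MV4-11 against Molm-14 had 1228 and 1392, and 518 and 631 with separate fits. SKNO-1 against Molm-14 had 533 and 867, 1432 and 2257 with the covariate, and 1479 and 2344 without the 4 libraries; SKNO-1 against MV4-11 had 67 and 163, then 508 and 780, and 336 and 487. Without MV4-11 DMSO replicate 2 the response counts were 3203 and 2670 for MV4-11 against Molm-14 and 229 and 641 for SKNO-1 against MV4-11. Other single libraries lowered the counts to 452 and 725 in MV4-11 (RMC-4550 replicate 3), 651 and 744 for the response of MV4-11 against Molm-14 (MV4-11 DMSO replicate 1), 354 and 562 for that of SKNO-1 against Molm-14 (SKNO-1 DMSO replicate 2), and from 2965 and 3299 to 1789 and 2202 for SKNO-1 against MV4-11 with DMSO (MV4-11 DMSO replicate 3). Depth limits TLR7, TLR8, TLR9 and CD14, with at most 33 reads in a library.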
